A study of Mus musculus with 6 samples.

Results

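The 10 genes described here are *Sting1*, the gene that carries the engineered mutation in these mice, and 9 genes whose products sense its trigger, relay its signal, limit it or move it through the cell. They are *Cgas*, *Trex1*, *Enpp1*, *Tbk1*, *Ikbke*, *Mavs*, *Surf4*, *Copa* and *Stim1*. They were chosen by symbol, and all 10 are present among the 53746 genes of the deposited count table. RNA was sequenced from the whole cerebellum of 6 mice at 2 months of age. LSL stands for a LoxP-Stop-LoxP cassette, which holds back the *Sting1* N153S knockin allele, a constitutively active form of STING, until Cre recombinase removes it. The 3 control mice carried this LSL allele on both chromosomes without Cre (N153S LSL/LSL). The 3 Pcp2-cre mice carried the same alleles with *Pcp2-cre* (N153S LSL/LSL Pcp2-cre). Control mice still had *Sting1* reads, and the transcripts that gave them were not identified. The *Pcp2* promoter drives Cre in Purkinje cells, so the mutant is switched on in that cell type while the RNA comes from all cell types of the cerebellum. In each genotype mice 1 and 2 are labelled male and mouse 3 female. In such whole-tissue RNA, fewer cells of a type and less RNA per cell cannot be told apart. The counts do not separate mutant from other *Sting1* transcripts.

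STING is a transmembrane protein of the endoplasmic reticulum. cGAS binds DNA in the cytosol and makes the cyclic dinucleotide cGAMP, which binds STING, and STING then travels to the Golgi, where it recruits the kinase TBK1 and, through IRF3 and NF-kB, can turn on interferon and inflammatory genes. TREX1 degrades the DNA, ENPP1 hydrolyses cGAMP outside the cell, SURF4 and the COPI coat protein COPA return STING to the endoplasmic reticulum, and STIM1 holds it there.

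Of the 10 genes, 8 passed edgeR's filter on low counts, *Cgas* did not, and *Trex1* had no counts at all. *Sting1* was the gene of this group that rose past both thresholds, which were 0.05 for the adjusted p and 0.5 for the size of the log2 fold change (1 of 8 tested, where 1.37% of the 16961 genes tested were called higher). None of the 8 was called lower, where 1.79% of all genes tested were, and 2 had an unadjusted p under 0.05 in that direction, *Stim1* and *Copa* (9.67% of all genes tested). DESeq2 also called *Sting1* higher and no member lower. Without the fold threshold *Sting1* was still the member that was higher (2.99% of all genes tested) and *Stim1* was the member that was lower (4.75% of all genes tested). The median log2 fold change of the 8 was -0.07, beside 0.0045 over all genes tested.

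**Figure D1:**
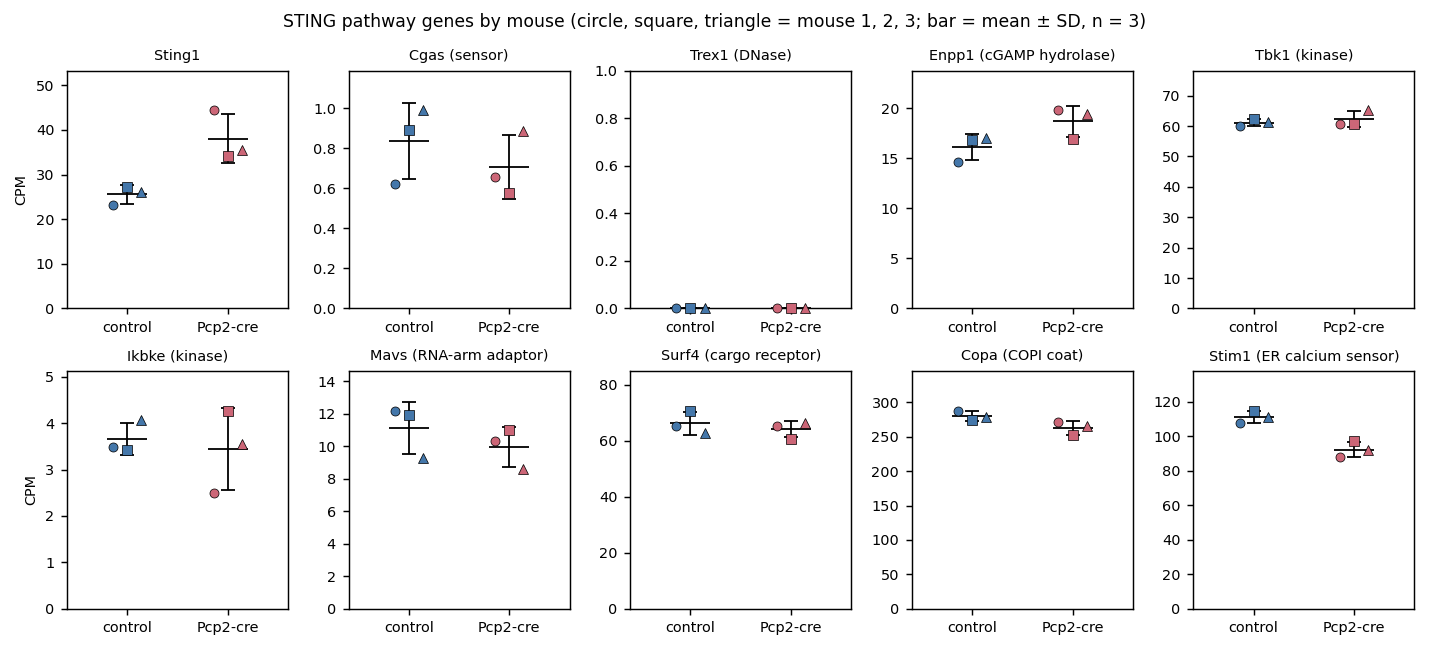
Counts scaled to library size by TMM (CPM, linear axes from 0) of the 10 genes in each of 3 control and 3 Pcp2-cre mice, with symbols for mouse 1, 2 and 3 and bars for mean ± SD. *Sting1* lies between 23.2 and 27.2 CPM in control mice and between 34.2 and 44.4 CPM in Pcp2-cre mice, and *Trex1* is at 0 in every mouse.

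*Sting1* (ENSMUSG00000024349) lies at chr18:35866732-35873607 of GRCm39 on the reverse strand and shares no exon base with another Gencode M39 gene. It is the engineered gene, but its level is no check of the labels. The counts do not separate its transcripts by allele, and the RNA comes from all cell types. Control mice 1, 2 and 3 had 186, 183 and 264 counts, and Pcp2-cre mice 1, 2 and 3 had 337, 296 and 240. Scaled to library size these were 23.2, 27.2 and 26.2 CPM in the control mice and 44.4, 34.2 and 35.5 CPM in the Pcp2-cre mice. Every Pcp2-cre mouse lay above every control mouse, as 10.8% of all genes tested did, and Pcp2-cre mouse 1 was the highest of the 6. The mean rose from 25.5 ± 2.09 to 38.0 ± 5.55 CPM (SD, n = 3 mice of each genotype), a change of 1.49-fold with a 95% interval of 1.29 to 1.71. On the log2 scale the difference was 0.57 (standard error 0.0969, adjusted p = 3.59e-04, quasi-likelihood test of edgeR, Benjamini-Hochberg adjusted over all genes tested). By p it ranked 404 among all genes tested.

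The *Sting1* rise passed the adjusted p threshold with each mouse left out in turn, but its size depended on Pcp2-cre mouse 1. Without that mouse the log2 fold change was 0.45 (edgeR adjusted p = 0.00743), under the threshold of 0.5. In the second deposited table, where levels are FPKM (fragments scaled to exon length and library size), *Sting1* had 8.93, 12.6 and 13.5 FPKM in control and 20.8, 14.3 and 14.2 FPKM in Pcp2-cre mice. The genotypes again did not overlap, and the gap between the highest control mouse and the lowest Pcp2-cre mouse was small. The exact permutation test of the means, 11.7 ± 2.41 against 16.4 ± 3.75 FPKM (SD, n = 3 mice each), gave p = 0.10, the smallest that 3 mice against 3 allow. On log2(FPKM + 1) the difference was 0.46 with limma and did not pass (adjusted p = 0.439).

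Cell type markers differed between the same mice. The summed level of 11 microglia markers was 125 to 130 CPM in control mice and 350 to 394 CPM in Pcp2-cre mice, with 9 of the 11 called higher. The summed level of 10 Purkinje cell markers was 7880 to 8630 CPM in control and 4370 to 4830 CPM in Pcp2-cre mice, with 8 of the 10 called lower. Microglia are known to express *Sting1*, and Purkinje cells carry the activated allele. The microglia sum was higher and the Purkinje cell sum lower in the 3 mice with more *Sting1*, and the part of either in the *Sting1* value was not tested. Endothelial cells also express *Sting1*. Their 8 markers summed to 218 to 229 CPM in control and 231 to 241 CPM in Pcp2-cre mice, and none of the 8 was called. The 8 astrocyte and Bergmann glia markers summed to 2950 to 2990 CPM in control and 3350 to 3430 CPM in Pcp2-cre mice and did not move together. *Gfap* and *Aqp4* were called higher, and without the fold threshold 4 were higher and 2, *Slc1a3* and *Gdf10*, were lower. The 7 oligodendrocyte markers summed to 3640 to 3870 CPM and 4270 to 4480 CPM, with 0 called and 5 higher without the fold threshold. The 8 granule cell markers summed to 5100 to 5270 CPM and 5330 to 5500 CPM, with 0 called and 1 higher without it. T cell markers summed to at most 2.77 CPM in any mouse, and *Cd3g* was at 0 in all 6. Border macrophage markers summed to 11.9 to 14.6 CPM in control and 12.6 to 17.4 CPM in Pcp2-cre mice, and forebrain markers to at most 9.08 CPM.

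Choroid plexus RNA split the control mice. Its 8 markers summed to 803 and 1240 CPM in control mice 1 and 2 and to 31.9 CPM in control mouse 3, beside 23.0 to 86.6 CPM in Pcp2-cre mice. Control mice 1 and 2 are also the males of that genotype. Without them the log2 fold change of *Sting1* was 0.54. That fit sets a lone female control mouse, with no spread of its own, against Pcp2-cre mice of both sexes, so sex is unbalanced in it. With the summed markers as a covariate the log2 fold change of *Sting1* was 0.51 (edgeR adjusted p = 0.00516). The corresponding values of *Stim1* were -0.26 and -0.25, the latter with an edgeR adjusted p of 0.0109.

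**Figure D2:**
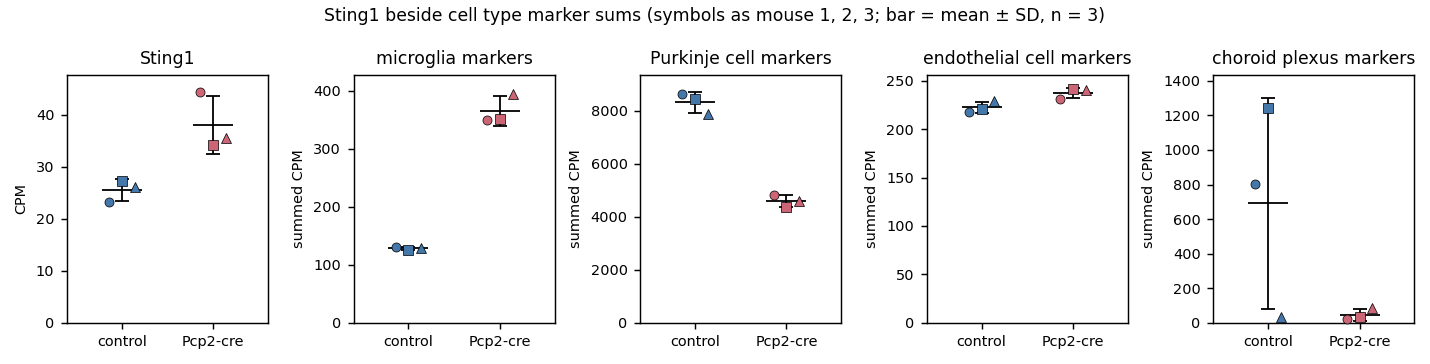
*Sting1* in CPM (left) and the summed CPM of microglia, Purkinje cell, endothelial cell and choroid plexus markers in the same 6 mice, with symbols for mouse 1, 2 and 3, bars for mean ± SD (n = 3) and linear axes from 0. Microglia sums are 125 to 130 CPM in control and 350 to 394 CPM in Pcp2-cre mice, and control mice 1 and 2 stand apart in choroid plexus markers at 803 and 1240 CPM.

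Upstream of STING, the sensor and the nuclease that removes its trigger were both at the limit of these data. *Cgas* (chr9:78337802-78350535, reverse strand), which makes cGAMP, had 5, 6 and 10 counts in control and 5, 5 and 6 counts in Pcp2-cre mice. These are 0.624, 0.893 and 0.991 CPM against 0.659, 0.577 and 0.888 CPM, not far above the floor of 3 counts, which was 0.295 to 0.446 CPM across the libraries. The genotypes overlapped. Pooled over mice, the 21 control and 16 Pcp2-cre counts gave a ratio of 0.822 with a 95% counting interval of 0.401 to 1.65. At this depth the counts do not exclude a ratio inside these bounds. The interval covers counting error only. In FPKM the direction was the opposite, with 0.104, 0.173 and 0.135 FPKM in control and 0.194, 0.14 and 0.209 FPKM in Pcp2-cre mice, a ratio of means of 1.32 with overlapping genotypes (exact permutation p = 0.20). No direction is given for *Cgas*. An lncRNA gene on the other strand, *Gm68924*, shares 1785 bp of *Cgas* exon sequence, and whether strand was used to assign reads there is not stated.

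*Trex1*, a 3′ to 5′ DNA exonuclease, was listed at 0 counts in all 6 mice. Its gene (chr9:108887001-108888802 of GRCm39, reverse strand) lies inside another. All 1147 bp of *Trex1* exon sequence fall within exons of *Atrip*, a gene of the DNA damage checkpoint on the same strand, and so do all 942 coding bases. The first 60 coding bases are shown because this stretch, like the rest of the coding sequence, lies in exons of both annotated genes (chr9:108887930-108887989, RNA strand, the capitals mark the start codon).

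Trex1: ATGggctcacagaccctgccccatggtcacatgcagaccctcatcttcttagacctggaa

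This arrangement was not particular to *Trex1* in the count table. Among protein-coding genes with a mean of at least 1 FPKM, 18 of the 38 whose exons lie wholly inside same-strand exons of other genes had 0 counts in all 6 mice (47.4%), against 0 of 8 whose exons lie wholly inside opposite-strand exons and 0 of 4167 that share no exon base. Among genes that share part of their exons it was 3 of 8147. *Trex1* itself had a mean of 0.453 FPKM and was not in these counts. A *Trex1* count of 0 is therefore given here as listed, and no limit on the transcript is drawn from it.

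The FPKM table gave *Trex1* 0.257, 0.303 and 0.362 FPKM in control and 0.305, 0.596 and 0.893 FPKM in Pcp2-cre mice. How reads shared with *Atrip* entered these values is not stated. The genotypes overlapped, with Pcp2-cre mouse 1 inside the control range and Pcp2-cre mice 2 and 3 above it. The means were 0.307 ± 0.0528 and 0.598 ± 0.294 FPKM (SD, n = 3 mice each; exact permutation p = 0.20, two-sided). *Atrip*, whose exons enclose *Trex1*, had 271, 212 and 366 counts in control and 297, 294 and 230 counts in Pcp2-cre mice. Its log2 fold change was 0.07 (95% interval -0.10 to 0.23, edgeR adjusted p = 0.751).

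*Enpp1*, the ectoenzyme that hydrolyses extracellular cGAMP, lies at chr10:24513812-24588057 (reverse strand) and shares no exon base with another gene. It had 14.6, 16.8 and 17.0 CPM in control and 19.8, 16.9 and 19.4 CPM in Pcp2-cre mice. Pcp2-cre mouse 2 fell inside the control range, so the genotypes overlapped. The log2 fold change was 0.20 (95% interval -0.02 to 0.42, edgeR adjusted p = 0.338). In FPKM the genotypes did not overlap, at 1.82, 1.74 and 1.97 FPKM in control and 2.55, 2.22 and 2.16 FPKM in Pcp2-cre mice, with an exact permutation p of 0.10.

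The kinases downstream of STING showed no called difference, with very unequal precision. *Tbk1* (chr10:121382360-121422848, reverse strand), which phosphorylates STING and IRF3, had 60.1, 62.2 and 61.2 CPM in control and 60.8, 60.8 and 65.2 CPM in Pcp2-cre mice. The genotypes overlapped, and the log2 fold change of 0.02 had a 95% interval of -0.09 to 0.14 (edgeR adjusted p = 0.886), an interval narrower than those of all other members except *Copa* and *Stim1*. *Ikbke* (chr1:131182080-131207346, reverse strand), which encodes the related kinase IKK-epsilon, had only 19 to 41 counts a mouse. Its levels were 3.49, 3.42 and 4.06 CPM in control and 2.50, 4.27 and 3.55 CPM in Pcp2-cre mice, with both the lowest and the highest mouse in the Pcp2-cre group. Its log2 fold change was -0.09 (edgeR adjusted p = 0.898), and the 95% interval of -0.57 to 0.39 includes changes as large as that of *Sting1* in the downward direction. Within each mouse the log2 ratio of *Ikbke* to *Tbk1* differed by -0.14 between genotypes (exact permutation p = 0.60). In *Ikbke*, 334 bp of exon sequence is shared with lncRNA genes on the other strand.

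*Mavs*, the mitochondrial adaptor of the parallel RNA-sensing arm that also ends at TBK1, lies at chr2:131075442-131096740 on the forward strand. It had 12.2, 11.9 and 9.31 CPM in control and 10.3, 11 and 8.58 CPM in Pcp2-cre mice. The genotypes overlapped, and mouse 3 was the lowest of its genotype in both. The log2 fold change was -0.14 (95% interval -0.44 to 0.16, edgeR adjusted p = 0.695). A lncRNA gene on the other strand shares 606 bp of its exons.

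Of the proteins that move STING between the endoplasmic reticulum and the Golgi, neither was called. *Surf4*, a cargo receptor, had 65.2, 70.7 and 62.7 CPM in control and 65.3, 60.7 and 66.1 CPM in Pcp2-cre mice, with overlapping genotypes. Its log2 fold change was -0.04 (95% interval -0.17 to 0.08, edgeR adjusted p = 0.779). The gene (chr2:26807611-26823940, reverse strand) sits in the dense Surf cluster. Of its 5768 bp of exon sequence 4601 bp are shared with *Surf2* and 321 bp with *Stkld1* on the other strand, and 356 bp with *Surf1* on the same strand. Its counts are uncertain to the extent that reads of these stretches were shared or left out, which is not stated. *Copa* (chr1:171910077-171949900, forward strand) encodes the alpha subunit of the COPI coat, and had 1793 to 2819 counts a mouse. Genes on the other strand share 910 bp of its exon sequence. *Copa* had 288, 274 and 279 CPM in control and 272, 252 and 265 CPM in Pcp2-cre mice. The genotypes did not overlap, by a narrow margin, and Pcp2-cre was the lower, as 11.4% of all genes tested did. The log2 fold change of -0.09 (95% interval -0.18 to -0.01) had an unadjusted p of 0.0392 and did not pass adjustment (edgeR adjusted p = 0.24), and in FPKM the genotypes overlapped.

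*Stim1* (chr7:101916979-102086526, forward strand), the calcium sensor of the endoplasmic reticulum that opens ORAI channels when stores run low and that retains STING there, was lower in Pcp2-cre cerebella. Its counts were 868, 771 and 1116 in control and 668, 842 and 622 in Pcp2-cre mice. Scaled to library size these were 108, 115 and 111 CPM in control and 88.0, 97.2 and 92.0 CPM in Pcp2-cre mice. The highest Pcp2-cre mouse was thus below the lowest control mouse. The means were 111 ± 3.31 and 92.4 ± 4.62 CPM (SD, n = 3 mice each), a ratio of 0.833. On the log2 scale it fell by 0.26 (standard error 0.047, 95% interval -0.36 to -0.17, edgeR adjusted p = 6.52e-04), which passed the adjusted p threshold and not the fold threshold. With each mouse left out in turn its edgeR adjusted p was at most 0.00638. In FPKM *Stim1* had 29.8, 27.8 and 28.1 in control and 23.2, 26.9 and 23.6 in Pcp2-cre mice, again without overlap (exact permutation p = 0.10), but limma on log2(FPKM + 1) did not pass (adjusted p = 0.249). Purkinje cells express *Stim1* strongly, and the Purkinje cell marker sums above are lower in the same 3 mice. Their part in the *Stim1* value was not tested.

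**Figure D3:**
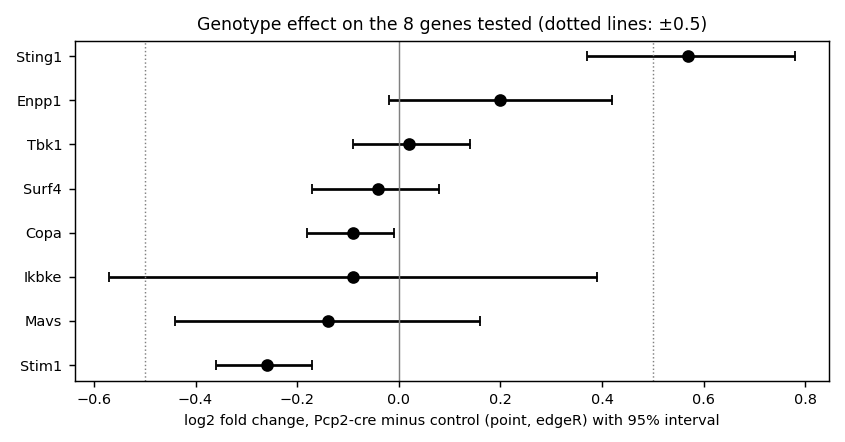
Log2 fold change of the 8 genes tested (points, Pcp2-cre minus control, edgeR) with 95% intervals, and dotted lines at ±0.5. The interval of *Sting1* runs from 0.37 to 0.78, that of *Stim1* from -0.36 to -0.17, and that of *Ikbke* is the widest, from -0.57 to 0.39.

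Ratios within a mouse do not depend on how libraries are scaled. The log2 ratio of *Sting1* to each of 8 other members did not overlap between genotypes and was higher with Pcp2-cre. The differences between genotypes ran from 0.36 against *Enpp1* to 0.84 against *Stim1*, with 0.54 against *Tbk1*, 0.61 against *Surf4*, 0.66 against *Copa*, 0.69 against *Ikbke*, 0.73 against *Mavs* and 0.80 against *Cgas*. These ratios share the *Sting1* counts and are not independent of one another. *Sting1* alone separated the genotypes too, so the count of 8 says little about the other members. How many of all genes tested would give a separated ratio was not computed. Each of the 8 ratios had an exact permutation p of 0.10, the smallest possible with 3 mice a genotype, and 0.113 after adjustment over the 9 ratios computed. For *Sting1* to *Tbk1*, a comparison of receptor to kinase, the log2 ratios were -1.37, -1.19 and -1.23 in control and -0.46, -0.83 and -0.88 in Pcp2-cre mice. No count ratio to *Trex1* could be formed. The ratio to *Cgas* rests on 5 to 10 *Cgas* counts a mouse, and that to *Ikbke* on 19 to 41 *Ikbke* counts. For *Ikbke* the genotypes were barely separated, at 2.99 in control mouse 2 and 3.0 in Pcp2-cre mouse 2. Formed from FPKM, a comparison chosen after seeing the data, 4 of 9 ratios did not overlap between genotypes, those to *Tbk1*, *Surf4*, *Copa* and *Stim1*, with differences of 0.45, 0.59, 0.56 and 0.71 (exact permutation p = 0.10 each, and 0.225 adjusted over the 9). The FPKM ratios to *Cgas*, *Enpp1*, *Ikbke*, *Mavs* and *Trex1* overlapped, with differences of 0.09, 0.17, 0.70, 0.48 and -0.35.

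Levels of different genes were compared in FPKM, which accounts for exon length. *Copa* was highest at a mean of 54.4 FPKM over the 6 mice, followed by *Stim1* at 26.5, *Tbk1* at 17.7, *Surf4* at 16.5 and *Sting1* at 14. A lower tier held *Mavs* at 2.8 FPKM, *Enpp1* at 2.08, *Ikbke* at 0.933, *Trex1* at 0.453 and *Cgas* at 0.159. Over the 6 mice the ranges of *Tbk1* and *Surf4*, *Surf4* and *Sting1*, *Mavs* and *Enpp1*, and *Ikbke* and *Trex1* overlapped, and those of the other neighbours in this order did not. Within control mice alone *Sting1* lay below *Surf4* without overlap, at 8.93 to 13.5 against 15.8 to 18.1 FPKM. Within Pcp2-cre mice they overlapped, at 14.2 to 20.8 against 15.5 to 16.4 FPKM. *Cgas*, the sensor, was the lowest of the 10 genes, at 0.104 to 0.209 FPKM.

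**Figure D4:**
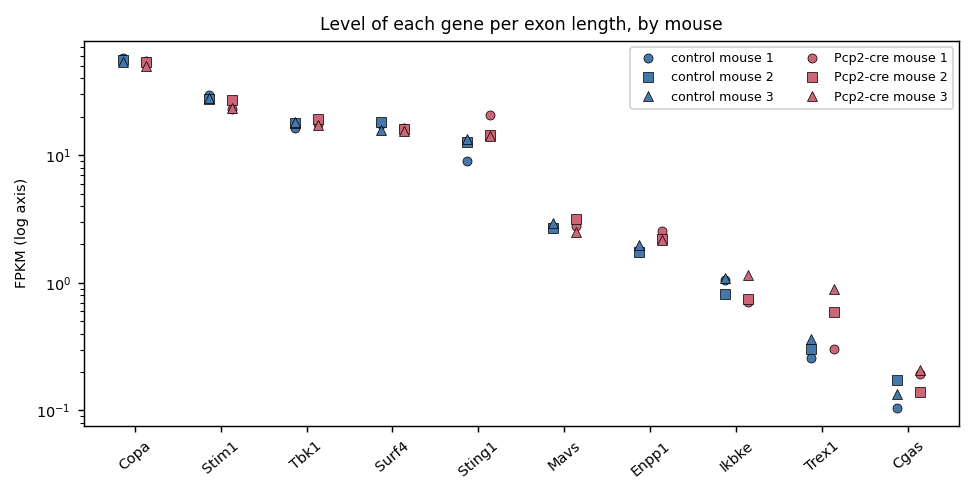
FPKM (log axis) of the 10 genes in each mouse, ordered from the highest mean, with blue symbols for control and red for Pcp2-cre mice 1, 2 and 3. The means run from 54.4 FPKM for *Copa* to 0.159 FPKM for *Cgas*.

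The wider pathway was read from 8 lists of 96 further genes, of which 93 were tested. None was called in either direction by edgeR. At an unadjusted p under 0.05, 8 of the 93 were higher and 10 lower, near the shares of all genes tested (8.36% higher and 9.67% lower), and 91 of the 93 had a log2 fold change under 0.5 in size. The median was -0.013. Passing the adjusted p without the fold threshold were 0 higher and 3 lower, *Tollip*, *Orai2* and *Insig1*, not above the 2.99% and 4.75% of all genes tested. DESeq2 called none at both thresholds either.

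Among 14 ubiquitin ligases and stability factors of STING, *Tollip*, whose product stabilises STING at the endoplasmic reticulum, had 216, 214 and 229 CPM in control and 175, 174 and 176 CPM in Pcp2-cre mice. The genotypes were well separated, and its log2 fold change was -0.33 (standard error 0.0424, edgeR adjusted p = 1.42e-05). *Insig1*, which encodes a sterol-regulated protein of the endoplasmic reticulum, had a log2 fold change of -0.22 (edgeR adjusted p = 0.042, and 0.261 with DESeq2). With a mouse left out *Insig1* passed the adjusted p threshold in only 2 of 6 fits, with an edgeR adjusted p of up to 0.158. At the ends of the list were *Usp18* and *Rnf26*. *Usp18*, an interferon-inducible deconjugase of ISG15 that also recruits a deubiquitinase to STING, had 1.37, 1.64 and 0.991 CPM in control and 1.71, 2.77 and 2.81 CPM in Pcp2-cre mice. Its log2 fold change of 0.90 did not pass (95% interval 0.25 to 1.55, edgeR adjusted p = 0.0918) and rests on 10 to 24 counts a mouse. *Rnf26*, an E3 ligase of the endoplasmic reticulum, had a log2 fold change of -0.41 (edgeR adjusted p = 0.186).

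Of 7 genes of RNA sensing upstream of MAVS, none passed. The 3 RIG-I-like receptor genes had positive values, *Dhx58* (LGP2) 0.52, *Ifih1* (MDA5) 0.49 and *Rigi* 0.34 on the log2 scale, with edgeR adjusted p of 0.143, 0.158 and 0.283. *Ifih1* and *Rigi* are named after their values were seen. Their levels were low, at 3.28 to 4.36 CPM for *Ifih1* in control and 5.27 to 5.77 CPM in Pcp2-cre mice. Without control mouse 2 *Dhx58* passed both thresholds (0.71, edgeR adjusted p = 0.0485). The lowest value of this list was *Zcchc3* at -0.09.

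The 12 tested genes of DNA and cGAMP handling ran from -0.33 for *Lrrc8c*, a subunit of volume-regulated anion channels that pass cGAMP, to 0.18 for *Rnaseh2b*, a subunit of ribonuclease H2 (edgeR adjusted p = 0.106 and 0.638). The 14 adaptors and targets of TBK1 and IKK-epsilon ran from -0.11 for *Azi2* to 0.28 for *Optn*, an autophagy receptor that binds TBK1 (edgeR adjusted p = 0.212 and 0.0505). *Optn* had 25.1, 28.0 and 24.4 CPM in control and 31.6, 28.9 and 33.1 CPM in Pcp2-cre mice, without overlap.

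The transport machinery that STING rides showed values in a narrow band. The 16 tested genes of COPII and exit from the endoplasmic reticulum ran from -0.15 for *Mcfd2* to 0.07 for *Tmed2* on the log2 scale, the 12 tested genes of the COPI coat and Arf1 machinery from -0.11 for *Gbf1* to 0.19 for *Copz2*, and the 13 genes of Golgi palmitoylation and sorting from -0.08 for *Tsg101* to 0.08 for *Ap1s3*. None of these genes passed the adjusted p threshold, and the list medians were -0.03, -0.02 and -0.03.

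Around *Stim1*, the list of store-operated calcium entry held 5 other genes. *Orai2*, a pore subunit of the channel STIM1 opens, had 70.2, 68.8 and 66.6 CPM in control and 60.6, 61.3 and 58.3 CPM in Pcp2-cre mice. The genotypes did not overlap, and the log2 fold change was -0.19 (standard error 0.0542, edgeR adjusted p = 0.0366, and 0.305 with DESeq2). With a mouse left out *Orai2* passed the adjusted p threshold in only 1 of 6 fits, with an edgeR adjusted p of up to 0.13. *Orai1* had a log2 fold change of 0.06 and *Stim2*, the paralog of *Stim1*, 0.02 (95% interval -0.12 to 0.16, edgeR adjusted p = 0.921).

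**Figure D5:**
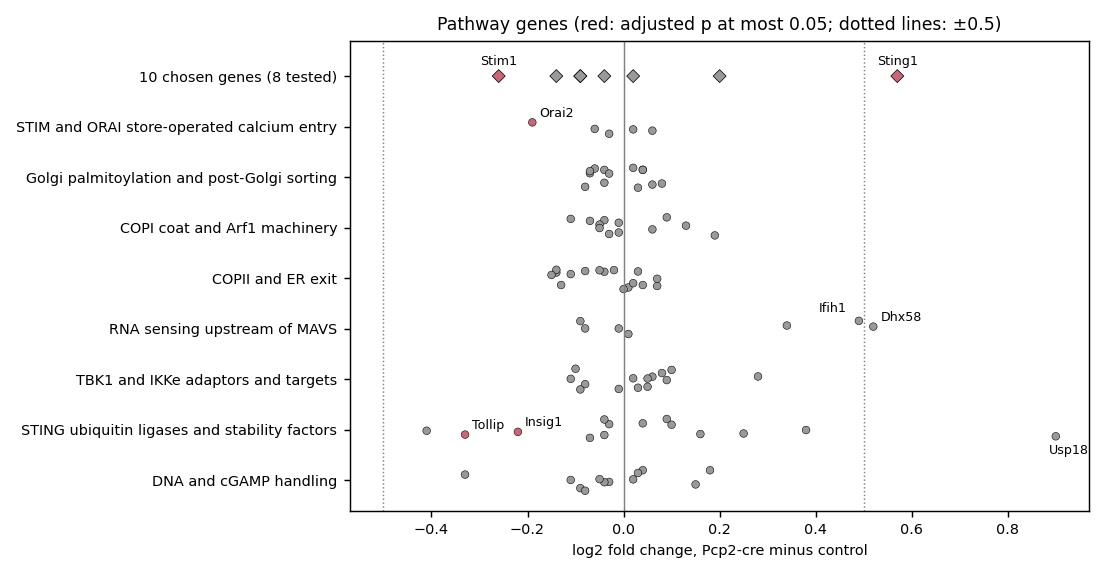
Log2 fold changes (Pcp2-cre minus control) of the 93 tested genes in 8 pathway lists (circles, spread vertically for clarity) and of the 8 tested genes of the 10 chosen (diamonds), with red for an adjusted p of at most 0.05 and dotted lines at ±0.5. *Tollip* (-0.33), *Insig1* (-0.22), *Orai2* (-0.19) and *Stim1* (-0.26) are red on the lower side and *Sting1* (0.57) on the higher side.

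The sexes were compared through the interaction of genotype and sex. No member passed, and the smallest adjusted p among the 8 was 0.966 (edgeR). *Sting1* differed by 0.63 between genotypes in males and by 0.44 in the single female pair, an interaction of -0.20 (standard error 0.193), and *Stim1* by -0.27 and -0.26. With 1 female a genotype the precision of these interactions is low.

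The genes whose log2 CPM followed that of *Sting1* most closely over the 6 mice were *Hacd1*, *Lysmd3*, *Sh2d1a*, *Fam43a* and *Gm17322*, with Pearson r of 0.993, 0.988, 0.987, 0.986 and 0.985. All 6 points share the genotype split, and with 16961 genes searched over 6 mice such values describe the pattern and carry no test. After the genotype mean was subtracted from every gene, a different 5 came first, *Cpm* (carboxypeptidase M), *Fsd1l*, *A330048O09Rik*, *Inha* and *Acot7*, with r of 0.996, 0.995, 0.995, 0.994 and 0.994.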

How the data were processed

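Poly A-enriched RNA of 6 cerebella was sequenced as paired reads. The authors aligned trimmed reads to GRCm39 with STAR and counted Gencode features with featureCounts and StringTie. Tool versions, the release of Gencode, strand use and the handling of reads shared by genes are not given in the sources used here. The authors deposited raw counts per gene (53746 genes, inferred to be from featureCounts) and a second table of FPKM (55005 genes, inferred to be from StringTie). The FPKM table holds no counts, so its depth is unknown. The table columns were matched to mice by genotype and mouse number.

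Counts as deposited were tested with edgeR 4.0.16 in R 4.3.3 (filterByExpr, TMM scaling, quasi-likelihood F test), and p-values were Benjamini-Hochberg adjusted over the 16961 genes kept. FPKM values were tested with limma 3.58.1 after adding a pseudocount of 1 or 0.1 (genes above 0 in at least 3 mice), so fold changes of low genes are understated, and with exact permutation tests (scipy 1.17.1, two-sided). Total counts were 6733178 to 10178218 a mouse, and the 10 most abundant genes took 2.70% to 3.04% of them. Replicates differed by more than sampling noise (chi-square per gene 1.38 to 3.62), and the labels give them as separate mice. Exon overlaps came from Gencode M39 on GRCm39. *Rigi* and *Steep1* were matched by Ensembl identifier.

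The genes and lists were chosen with earlier results of these data known. From each pathway list the genes called and those with the highest and lowest log2 fold change are named, beside others that passed the adjusted p. Alternatives were DESeq2 1.42.0 (Wald test, size factors), edgeR's likelihood ratio test, other count filters, a replicate block, sex as a covariate, males only, no fold threshold, FPKM, and each mouse left out. Leaving out control mice 1 and 2, the choroid plexus covariate and the FPKM ratios were chosen after seeing the data. On simulated counts for the Pcp2-cre against control comparison, 98 of 100 genes with a log2 change of 1 and 89 of 100 with 0.6 were called, and 5 of 16577 unchanged genes. The changed genes were drawn only from those with a mean above 5 CPM, and the spread between mice followed the fitted trend. These recovery values do not cover lower genes such as *Ikbke* and *Usp18*.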

Additional observations from a re-analysis of the deposited data

How the results depend on the processing

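Of 144 alternative values of the 8 tested members, 131 kept their direction and their call, 3 lost the call and 10 reversed. The 3 losses were all of *Sting1*, which kept its call in 15 of its 18 alternatives. The other members were not called in the main fit, so for them keeping the call means staying uncalled. Among the 131, *Stim1* no longer passed the adjusted p threshold in 2, with limma on FPKM (adjusted p = 0.249 and 0.237). *Sting1* stayed between 0.45 and 0.65 on the log2 scale. The count of members called higher, 1, became 0 with limma on log2(FPKM + 1) and on log2(FPKM + 0.1), where *Sting1* had 0.46 and 0.49, and ranged from 0 to 1 with a mouse left out, the 0 without Pcp2-cre mouse 1. The count called lower, 0, became 1 (*Stim1*) with no fold threshold. The count of pathway genes called higher was 0 to 1 with a mouse left out, the 1 being *Dhx58* without control mouse 2. The reversed values were all near 0. *Tbk1* was -0.01 in males only and without Pcp2-cre mouse 3, *Ikbke* was 0 without control mouse 3 and 0.09 without Pcp2-cre mouse 1, *Mavs* was 0.01 and 0.02 in FPKM, 0.02 with the choroid plexus covariate and 0.10 without control mice 1 and 2, and *Surf4* was 0.03 in each of the last 2 fits. With a mouse left out *Tbk1* ranged from -0.01 to 0.04 and *Ikbke* from -0.30 to 0.09. The cause was not tested. With mouse number as a replicate block *Sting1* was 0.57 (edgeR adjusted p = 6.49e-04), no member or pathway call changed, and over all genes 229 higher and 319 lower calls replaced 233 and 304. Same-numbered mice correlated by 0.041 to 0.166 in their deviations from the genotype means, and 3 of 6 mice correlated best with their own number, so the numbers were not taken to pair the mice. In both genotypes mice 1 and 2 are male and mouse 3 female, so these correlations cannot separate pairing from sex. Depth limits *Cgas* and *Ikbke*.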
